A study of Mus musculus with 10 samples.

Results

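Comp, Thbs4, Col23a1, Srpx2 and Ntn1 were described as a set of 5 genes, of 42566 genes joined over the plates, whose levels in lymphatic endothelial cells (LECs) differed more after deletion of both Tie receptors than after deletion of Tie1 alone. They were chosen from the measured change with Tie1 deletion and with Tie1/Tie2 deletion, so those changes are given as a description, with no p-value and no inference from them. LECs were sorted from mouse ear skin as CD31+ podoplanin+ cells into plates, and 1 sample was 1 plate of single-cell Smart-seq read counts per gene and well. The 8 plates made 4 groups of 2: Tie1 fl/fl and Tie1 Tie2 fl/fl controls, which were Cre-, and the Cre+ plates Prox1-CreERT2;Tie1 fl/fl (Tie1 iΔLEC) and Prox1-CreERT2;Tie1 fl/fl,Tie2 fl/fl (Tie1 Tie2 iΔLEC). Pups of all 4 groups, controls included, received 62.5 µg of 4-hydroxytamoxifen (4-OHT) by intragastric injection at P1 to P5, and the ears were analyzed at P28. The first Tie1 fl/fl plate and the first Tie1 iΔLEC plate came from females and the other 6 from males. The Cre driver is expressed from Prox1, which marks LECs, so recombination depends on Prox1 activity at the time of 4-OHT. A further pair of samples, described last, were droplet (10x) libraries of CD31+ cells from C57Bl/6j wild-type males given 20 mg/kg of an Ang2-blocking antibody (Ang2 Ab) or control IgG every 3 days from P16 to P21.

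Tie1 and Tie2 (gene symbol Tek) are receptor tyrosine kinases of endothelial cells. Tie2 binds the angiopoietins, and Tie1 binds no angiopoietin directly but forms complexes with Tie2 and modifies its signaling. In skin, the receptors and Ang2 are known for their part in the growth and remodeling of lymphatic vessels, which comprise blind-ended capillaries, collecting vessels and their valves. All 5 genes encode secreted or membrane-bound proteins of the extracellular space. COMP (thrombospondin 5) and thrombospondin 4 are among the pentameric thrombospondins of the matrix, collagen XXIII is a transmembrane collagen that can be shed from the cell surface, SRPX2 is a secreted sushi-repeat protein known as a ligand of the urokinase receptor, and netrin-1 is a secreted guidance cue that binds DCC, neogenin and UNC5 receptors.

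In the annotation of build GRCm38, Comp lay at chr8:70373558-70382066 on the plus strand with 20 exon blocks. Thbs4 lay at chr13:92751590-92794818 on the minus strand with 22 exon blocks, Col23a1 at chr11:51289920-51583918 on the plus strand with 30, and Srpx2 at chrX:133908426-133932446 on the plus strand with 12. Ntn1 lay at chr11:68209364-68400823 on the minus strand with 9 exon blocks, and its span overlapped Mir6406 on the opposite strand and Gm12305 on its own. The counting is not stated to use strand, so reads from the overlapping loci cannot be told apart from those of Ntn1.

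The 250 bases before the transcription start were held by the RefSeq promoter table (GRCm38.p6) for 3 of the 5 genes. They are shown because the levels of these 3 genes moved in the same plates, downward for Thbs4 and Col23a1 and upward for Srpx2, and the capitals mark matches to the GC box GGGCGG and to the ETS core AGGAAG on either strand. They are the windows chr13:92794819-92795068 (minus strand) for Thbs4, chr11:51289670-51289919 (plus) for Col23a1 and chrX:133908175-133908424 (plus) for Srpx2.
Thbs4: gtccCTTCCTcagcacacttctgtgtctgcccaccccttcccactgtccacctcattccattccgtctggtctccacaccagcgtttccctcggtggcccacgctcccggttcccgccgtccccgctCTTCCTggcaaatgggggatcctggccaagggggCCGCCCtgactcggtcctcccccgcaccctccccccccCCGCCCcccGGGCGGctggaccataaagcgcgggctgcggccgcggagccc
Col23a1: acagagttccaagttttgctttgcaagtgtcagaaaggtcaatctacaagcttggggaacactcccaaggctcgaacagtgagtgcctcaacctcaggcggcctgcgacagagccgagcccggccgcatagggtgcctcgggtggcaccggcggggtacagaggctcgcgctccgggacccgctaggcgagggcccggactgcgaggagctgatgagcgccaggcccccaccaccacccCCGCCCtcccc
Srpx2: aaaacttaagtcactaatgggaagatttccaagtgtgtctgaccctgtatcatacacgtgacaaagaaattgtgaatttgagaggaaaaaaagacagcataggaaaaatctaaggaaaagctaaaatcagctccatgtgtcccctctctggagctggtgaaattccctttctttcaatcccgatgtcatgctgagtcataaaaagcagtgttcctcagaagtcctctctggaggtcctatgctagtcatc
The Thbs4 window was 70.8% G and C, with GC boxes starting at -89, -51 and -42 and ETS cores at -246 and -123. The Col23a1 window was 66.0% G and C with 1 GC box at -11. The Srpx2 window was 41.2% G and C, under the median of 52.4% over 32851 promoters of the same length, and held no match to any of 5 motifs searched on both strands. Of all promoters, 32.7% held the GC box, 29.5% the ETS core, 12.4% the TATA box TATAAA, 9.99% the GATA motif AGATAA and 3.17% the forkhead motif GTAAACA. None of the 3 windows held the last 3 motifs.

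Of 3048 wells, 3028 had at least 1000 detected genes. Per plate, 310 to 361 wells were kept as LECs after removal of clusters named by fibroblast or keratinocyte markers. Mural, Schwann cell and leukocyte markers named no cluster, and blood endothelial markers were not used to name or remove wells of the plates. The LEC wells of a plate summed to 67461296 to 104051303 counts, given below as CPM (the count scaled to a common TMM-adjusted library total). Plates came in 2 table layouts, and those listed by gene symbol (the first plate of both Tie1 groups and the second of both Tie1/Tie2 groups) had more detected genes per well (medians 5946.5 to 7023) than the other 4 (3698.5 to 5124). In the Tie1 groups the layout and the sex of the mice coincide and cannot be told apart. Summed levels of the 6 LEC markers were 5858 to 7593 CPM on all plates. Summed fibroblast markers were 244 CPM on the first Tie1 Tie2 fl/fl plate and 20.0 to 56.5 on the others. Summed blood endothelial markers were 478 to 566 CPM on the controls, 544 and 702 on the Tie1 iΔLEC plates and 1110 and 904 on the Tie1 Tie2 iΔLEC plates. Summed mural markers were 11.1 to 77.3 CPM on the controls, 53.0 and 71.6 on Tie1 iΔLEC and 164 and 140 on Tie1 Tie2 iΔLEC. The part of these cells in the results below was not tested.

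Both targeted genes were lower on the plates where they were deleted. Tie1 stood at 2219, 2855, 2759 and 2565 CPM on the 4 controls, 678 and 648 on Tie1 iΔLEC and 743 and 455 on Tie1 Tie2 iΔLEC, so each deleted plate was below every control. Its log2 change was -1.94 (SE 0.25) with Tie1 deletion, which did not pass edgeR's quasi-likelihood test after Benjamini-Hochberg adjustment over all genes (adjusted p = 0.264). With Tie1/Tie2 deletion Tie1 fell by 2.15 (SE 0.25, adjusted p = 0.00700 in the same test). For log2 changes, SE here and below is the absolute change divided by the square root of that test's F statistic, not a separately fitted error. Tek, which encodes Tie2, stood at 214, 338, 311 and 289 CPM on the controls, 213 and 247 on Tie1 iΔLEC and 32.1 and 51.0 on Tie1 Tie2 iΔLEC. It fell by 2.85 (SE 0.32, edgeR adjusted p = 0.00550) with Tie1/Tie2 deletion, and its change with Tie1 deletion was -0.26 (SE 0.30).

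Levels of the 5 genes differed widely among LECs of control mice. On a scale of CPM per kilobase of exon, Comp was highest at 144 ± 45.01 (SD, n = 4 control plates), followed by Ntn1 at 79.1 ± 9.66, Col23a1 at 20.9 ± 2.42, Thbs4 at 10.5 ± 6.13 and Srpx2 at 5.96 ± 1.73. The spreads of Thbs4 and Srpx2 met, and those of the other neighbors in this order did not. On the Tie1 Tie2 iΔLEC plates the mean level per kilobase was 40.5 for Srpx2, 28.5 for Ntn1, 3.20 for Col23a1, 2.43 for Comp and 0.0663 for Thbs4, so Srpx2 went from the lowest to the highest of the 5.

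**Figure D1:**
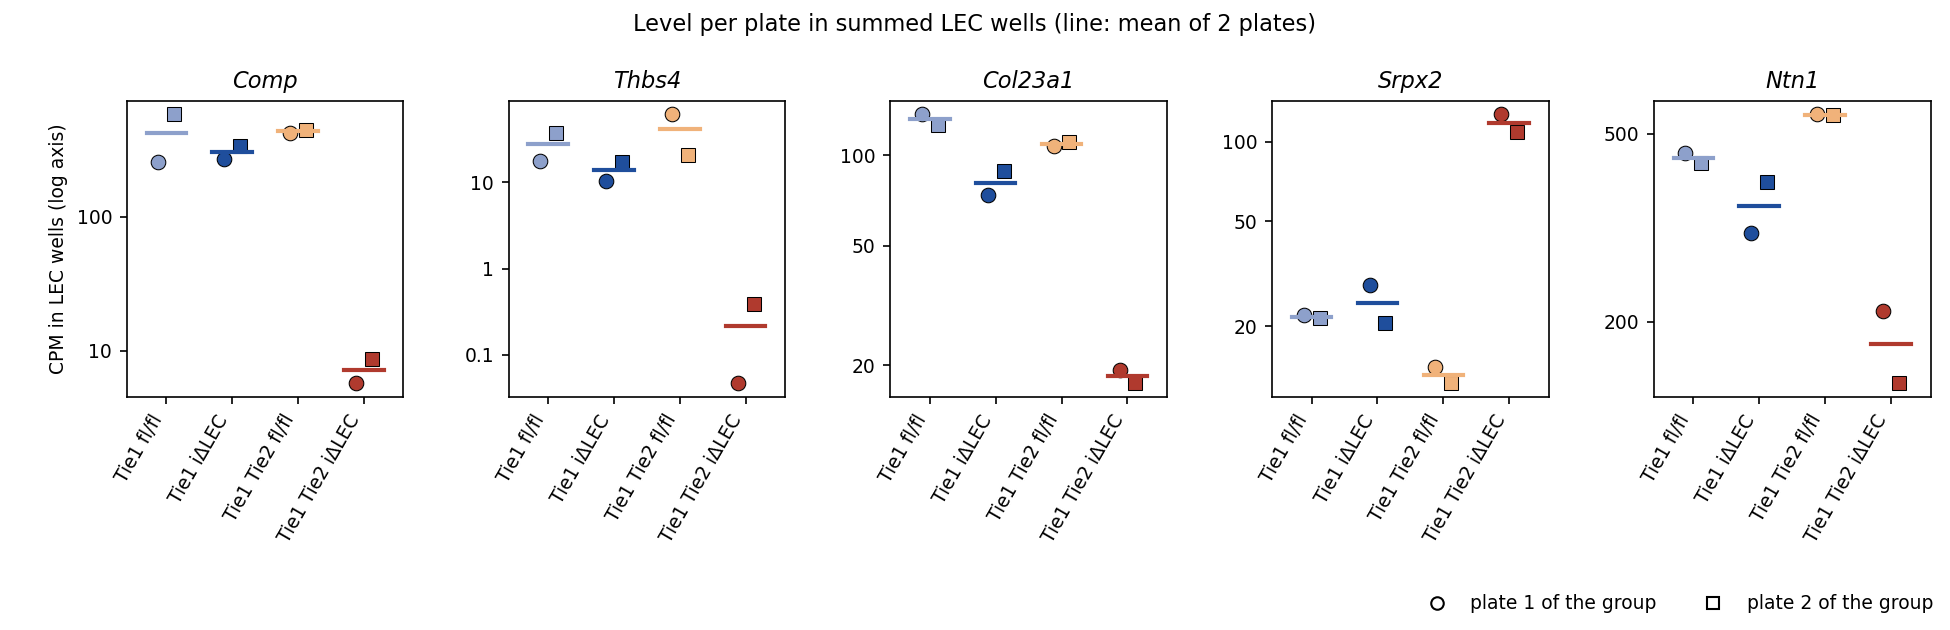
Level of each gene in the summed LEC wells of each plate, in CPM on a log axis, with 1 point per plate, circle and square for the first and second plate of a group, and a line at the mean of 2 plates. For each gene both Tie1 Tie2 iΔLEC plates sit outside the range of the other 6, above it for Srpx2 and below it for the other 4.

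Comp, a matrix protein best known from cartilage and tendon, was reduced to a small remainder on the Tie1 Tie2 iΔLEC plates. It stood at 257 and 583 CPM on the Tie1 fl/fl plates, 426 and 444 on Tie1 Tie2 fl/fl, 269 and 339 on Tie1 iΔLEC, and 5.70 and 8.74 on Tie1 Tie2 iΔLEC. Those last plates hold 366 and 942 Comp counts. The Tie1 iΔLEC plates fell inside the range of their own controls, and the Tie1 Tie2 iΔLEC plates were far below all other plates. Group means were 420 ± 230 (SD, n = 2) and 304 ± 49.7 for the Tie1 strain and 435 ± 12.8 and 7.22 ± 2.15 for the Tie1 Tie2 strain. The log2 change was -0.47 (SE 0.38) with Tie1 deletion and -5.91 (SE 0.47), or 60.2-fold lower, with Tie1/Tie2 deletion. The Tie1 value rests on the second Tie1 fl/fl plate: without it the change was 0.24.

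Thbs4, the thrombospondin closest to COMP, was lower by more on the fold scale but rested on few wells. Its CPM was 17.8 and 37.7 on Tie1 fl/fl, 61.8 and 20.8 on Tie1 Tie2 fl/fl, 10.4 and 17.2 on Tie1 iΔLEC, and 0.0467 (3 counts) and 0.390 (42 counts) on Tie1 Tie2 iΔLEC. The Tie1 iΔLEC plates were just below all 4 controls, by less than the spread among the controls. The log2 change was -1.01 (SE 0.80) with Tie1 deletion and -7.48 (SE 1.07) with Tie1/Tie2 deletion. The highest control plate is also the plate with the most fibroblast marker RNA, and Thbs4 was also found in fibroblasts of the droplet libraries described last. Without that plate the change with Tie1/Tie2 deletion was -6.53, and in LEC wells with at most 100 CPM of fibroblast markers on any plate it was -10.25. That filter left 133 of the 337 LEC wells of the first Tie1 Tie2 fl/fl plate. Of the 42 counts on the second Tie1 Tie2 iΔLEC plate, 39 lay in 1 well. The size of these changes thus rests on values near the floor.

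Col23a1, the transmembrane collagen, was lower on the Tie1 iΔLEC plates than on every control and lower again on the Tie1 Tie2 iΔLEC plates. It was at 137 and 126 CPM on Tie1 fl/fl, 107 and 110 on Tie1 Tie2 fl/fl, 73.6 and 88.4 on Tie1 iΔLEC, and 19.3 and 17.4 on Tie1 Tie2 iΔLEC. The 4 groups did not overlap, in the order Tie1 fl/fl, Tie1 Tie2 fl/fl, Tie1 iΔLEC and Tie1 Tie2 iΔLEC. The log2 change was -0.70 (SE 0.22) with Tie1 deletion and -2.57 (SE 0.24), or 5.93-fold lower, with Tie1/Tie2 deletion.

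Srpx2, the urokinase receptor ligand, was the only member of the 5 that was higher. It was at 22.0 and 21.5 CPM on Tie1 fl/fl, 14.0 and 12.1 on Tie1 Tie2 fl/fl, 28.7 and 20.5 on Tie1 iΔLEC, and 127 and 109 on Tie1 Tie2 iΔLEC. The Tie1 fl/fl and Tie1 iΔLEC plates overlapped, and both Tie1 Tie2 iΔLEC plates were above all others. The log2 change was 0.18 (SE 0.28) with Tie1 deletion, and -0.08 without the first Tie1 iΔLEC plate. With Tie1/Tie2 deletion it was 3.18 (SE 0.30), or 9.05-fold higher. Tie1 Tie2 fl/fl controls were lower than Tie1 fl/fl controls by 0.73 on the log2 scale (SE 0.28). Mural cells of the droplet libraries also held Srpx2, and the summed mural markers were higher on the same plates. That sum was carried by Kcnj8 (158 and 129 CPM on Tie1 Tie2 iΔLEC), the 1 of 8 mural markers that rose by edgeR (adjusted p = 0.0347), where 0.326% of all genes did. Kcnj8 did not pass with the replicate number of the plates as a block or in some fits with 1 plate left out. Over 19 alternative fits its log2 change was 3.04 to 3.97. The median change of the 8 mural markers was -2.45, and the part of mural cells in the Srpx2 change was not tested. In LEC wells with at most 100 CPM of fibroblast markers, which left 133 of 337 wells on the first Tie1 Tie2 fl/fl plate, the Srpx2 change was 3.81.

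Ntn1, the netrin, kept more of its level than the other 3 that were lower. It was at 456 and 433 CPM on Tie1 fl/fl, 549.7 and 547 on Tie1 Tie2 fl/fl, 308 and 396 on Tie1 iΔLEC, and 210.2 and 148 on Tie1 Tie2 iΔLEC. Deleted plates were below their own controls in both strains, and the Tie1 Tie2 iΔLEC plates were the lowest. The log2 change was -0.34 (SE 0.23) with Tie1 deletion and -1.61 (SE 0.24), or 3.06-fold lower, with Tie1/Tie2 deletion.

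The difference between the deletions, the change with Tie1/Tie2 deletion minus that with Tie1 deletion, was -5.44 (SE 0.57) for Comp, -6.47 (SE 1.25) for Thbs4, -1.87 (SE 0.32) for Col23a1, 3.001 (SE 0.40) for Srpx2 and -1.28 (SE 0.33) for Ntn1 on the log2 scale. The median over all 19909 genes tested was -0.00143 with Tie1 deletion, 0.00166 with Tie1/Tie2 deletion and -0.0226 for the difference. All 5 members passed the test with Tie1/Tie2 deletion, where 1.25% of all genes did, none did with Tie1 deletion, where 0% did, and Comp and Srpx2 did for the difference, where 0.136% did (0.00502% higher and 0.131% lower). Srpx2 was the 1 gene called higher for the difference. It did not pass there with limma, with the table layout or the replicate number as a term, with no cluster removed or at clustering resolution 2.0. Nor did Srpx2 pass there in most fits with 1 plate left out, which leave 1 plate in a group. Over all fits with 1 plate left out its log2 difference was 2.79 to 3.26. The members were chosen on these comparisons, so nothing is read from these counts. In the Tie1 deletion no gene passed edgeR's test, 844 of the 19909 had an unadjusted p under 0.05, and DESeq2 called 176. The same counts between the control strains, where nothing was deleted, were 861 and 143. Between the 2 control strains none of the 5 passed (0% of all genes); Srpx2, Col23a1 and Ntn1 did not overlap there, against 15.6% of all genes higher and 12.8% lower. With Tie1 deletion Thbs4, Col23a1 and Ntn1 were lower without overlap, against 13.4% of all genes. With Tie1/Tie2 deletion all 5 did not overlap, against 16.6% higher and 20.7% lower, and the Tie1 Tie2 iΔLEC plates were below all 6 other plates for 7.17% of genes and above them for 5.66%. In bulk sums of this kind, fewer cells with a transcript and less RNA per cell cannot be told apart.

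**Figure D2:**
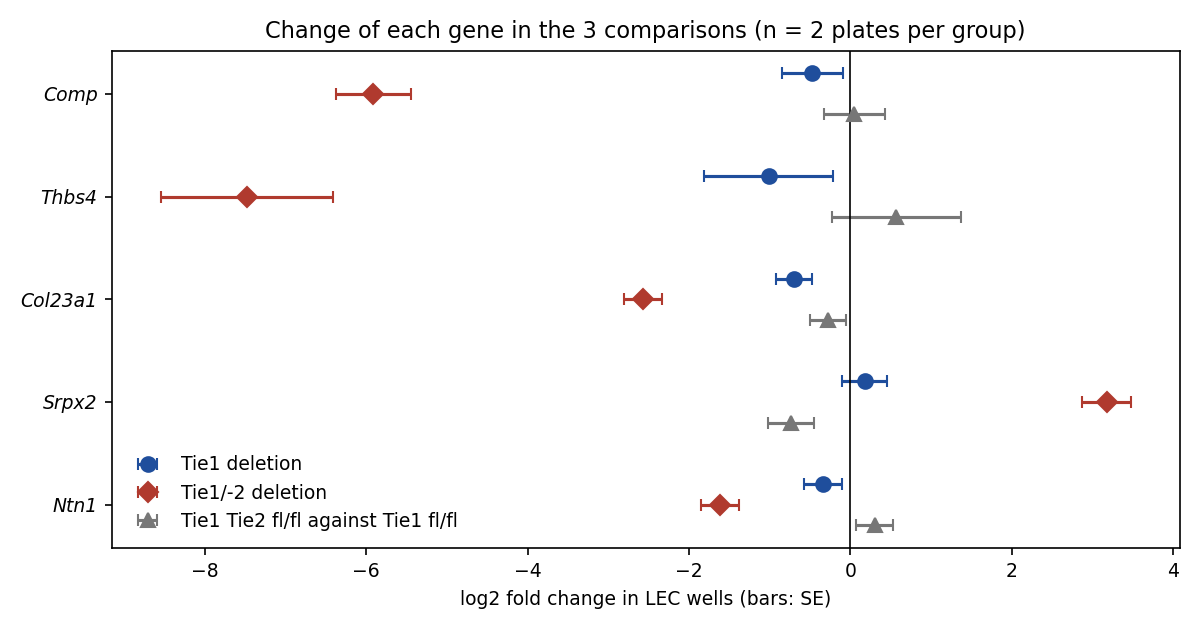
Log2 fold change of each gene with Tie1 deletion, with Tie1/Tie2 deletion and between the control strains, in LEC wells summed per plate (2 plates per group), with bars of 1 SE. The Tie1/Tie2 values lie at -5.91 for Comp, -7.48 for Thbs4, -2.57 for Col23a1, 3.18 for Srpx2 and -1.61 for Ntn1, all farther from 0 than the Tie1 values and than the control strains.

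The same directions were found within each table layout, where each group holds 1 plate and no error can be given. With Tie1/Tie2 deletion the log2 change, on log2(CPM + 1), was -5.52 in the symbol layout and -5.99 in the other for Comp, and -3.97 and -5.91 for Thbs4. It was -2.60 and -2.41 for Col23a1, 3.07 and 3.09 for Srpx2, and -1.88 and -1.38 for Ntn1. With Tie1 deletion Comp was 0.06 in the symbol layout and -0.78 in the other, and Srpx2 0.37 and -0.07, so the sign of both differed between the layouts. In the Tie1 groups layout, sex and plate coincide, so this cannot be assigned to any of them. Col23a1 (-0.88 and -0.51), Ntn1 (-0.56 and -0.13) and Thbs4 (-0.72 and -1.09) were lower in both layouts.

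Single wells showed in how many cells each gene was found. Low counts were not particular to the wells kept as LECs. Comp had at least 1 count in 92.6 to 98.5% of LEC wells on the control plates. It also had a count in 88.4 to 100% of the fibroblast-like wells of the same plates, and in 0 and 7.69% of those on the Tie1 Tie2 iΔLEC plates. A minimum of 20 counts was therefore used, a choice made after seeing the data. At that level Comp was found in 27.1, 36.8, 30.6 and 39.0% of LEC wells on the 4 controls, 27.4 and 26.5% on Tie1 iΔLEC, and 1.12% (4 wells) and 2.30% (8 wells) on Tie1 Tie2 iΔLEC. In fibroblast-like wells the share was 0 to 11.6% over the plates. Their median of 14524.5 counts was only 0.0887 of that of their plates, so this minimum does not show Comp to be particular to LECs. These wells also held LEC markers, with at least 5 counts of Mmrn1 in 89.7%, Reln in 69.4% and Pdpn in 55.6% of them. They may thus be shallow or mixed LEC wells, and Comp in them does not show it outside LECs. Thinned to 50000 counts, at least 5 Comp counts were found in 85.7% of the 7 fibroblast-like wells deep enough on the first Tie1 fl/fl plate. In its 252 LEC wells the share was 32.5%. The order was the other way on the first Tie1 Tie2 fl/fl plate (21.1% of 19 fibroblast-like and 31.5% of 324 LEC wells). It was so too on the second Tie1 Tie2 fl/fl plate (0% of 2 and 44.0% of 323). Loss of Comp after Tie1/Tie2 deletion was thus seen as fewer high wells, and the wells that remained high held a median of 487 and 438 CPM against 765 to 1370.2 on the controls.

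Srpx2 behaved in the opposite way. Wells with at least 20 counts made up 3.87, 3.19, 2.08 and 2.93% on the controls, 6.09 and 3.70% on Tie1 iΔLEC, and 20.9 and 28.4% on Tie1 Tie2 iΔLEC, without overlap between the last group and the rest. Their median level was 451 and 350.0 CPM there and 399 to 461 on the controls, so the number of high wells differed and the level within them overlapped or was lower. Ntn1 was high in 56.8, 50.1, 63.2 and 69.5% of control wells, 53.5 and 51.6% of Tie1 iΔLEC wells and 31.8 and 33.0% of Tie1 Tie2 iΔLEC wells. Col23a1 was high in 25.5, 15.1, 18.4 and 19.9%, then 14.1 and 12.8%, then 3.91 and 5.75%. For both genes the Tie1 Tie2 iΔLEC plates were the lowest. Thbs4 was high in only 2.26 to 4.45% of control wells, 3.05 and 1.71% of Tie1 iΔLEC wells, and 0 of 358 and 1 of 348 wells on Tie1 Tie2 iΔLEC. A count of 0 in 358 wells allows a share of up to 0.838%. On the other 6 plates the 5 highest wells held 53.1 to 95.6% of all Thbs4 counts.

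**Figure D3:**
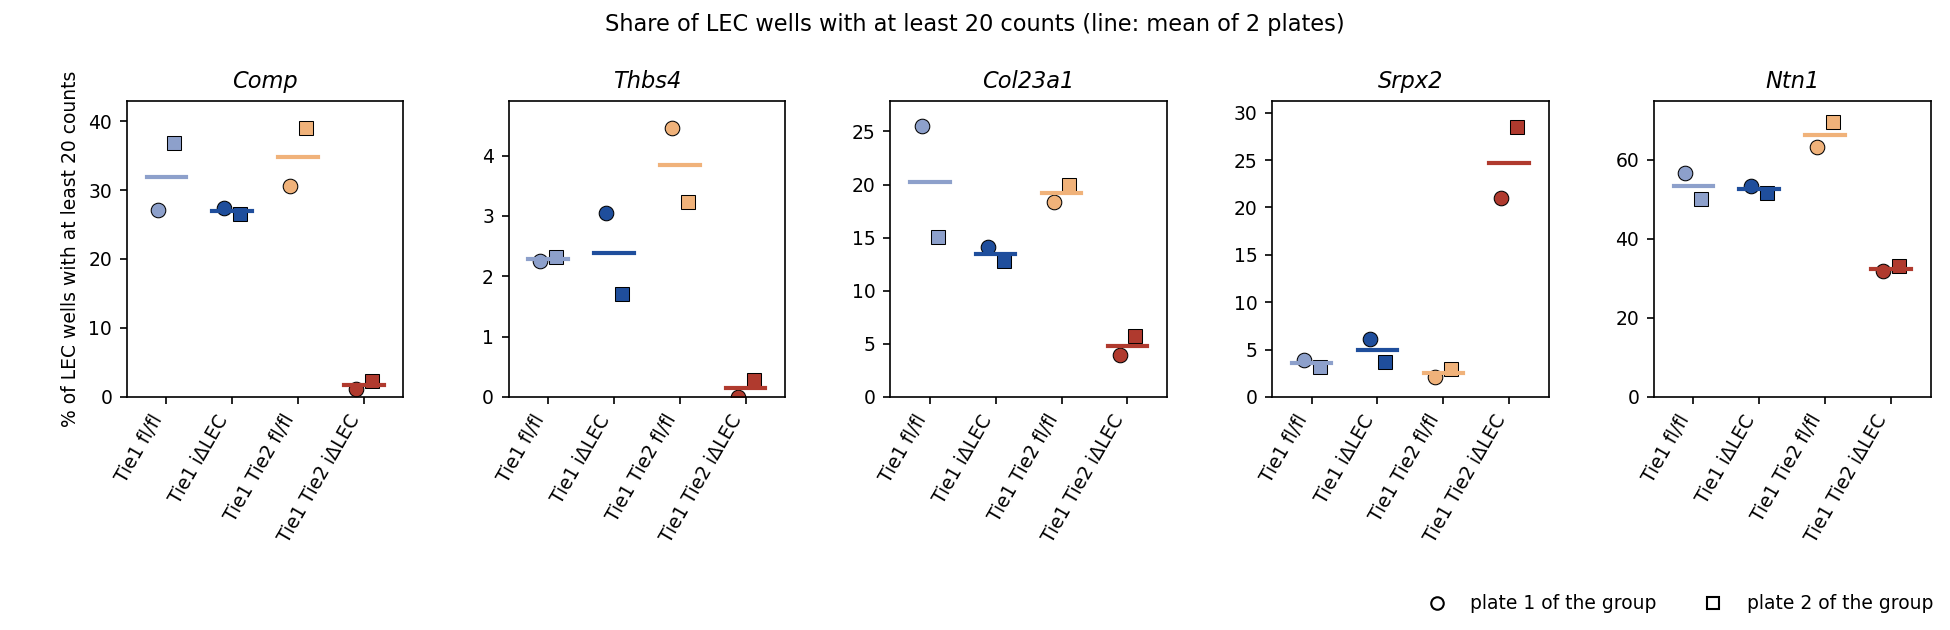
Percentage of LEC wells with at least 20 counts of each gene on each plate, with 1 point per plate, circle and square for the first and second plate of a group, and a line at the mean of 2 plates. Srpx2 reaches 20.9 and 28.4% on Tie1 Tie2 iΔLEC against 2.08 to 6.09% on the other plates, and the other 4 genes are lowest on Tie1 Tie2 iΔLEC.

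On the Tie1 Tie2 iΔLEC plates the members were also compared between wells with and without transcript of the deleted receptors. Of their 358 and 348 LEC wells, 69 had at least 20 Tek counts and 539 had none. Comp was high in 1.45% of the former (1 well) and 1.48% of the latter (8 wells). Srpx2 was high in 26.1 and 24.1%, Ntn1 in 33.3 and 31.9%, and Col23a1 in 7.25 and 4.27%. These shares pool 2 plates. On the first plate Ntn1 was high in 44.8% of wells with at least 20 Tek counts and 30.7% of the rest. On the second the order was the other way, at 25.0 and 34.1%. Divided by Tie1 (326 wells with at least 20 counts, 104 with none), Comp was high in 1.23 and 2.88% (4 and 3 wells). Srpx2 was high in 23.0 and 23.1%, and Ntn1 in 30.1 and 34.6%. Transcript of a recombined allele can still be counted, so these counts do not tell which wells kept an intact receptor. In both divisions the shares of Comp and Srpx2 were far nearer each other than to those on the controls. For Comp each share rests on 1 to 8 high wells. The wells of a plate share 1 sample, and no test was made across them.

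High wells of different members overlapped in part. These shares pool the plates of a group, which differ in their share of high wells. The minimum of 20 counts was not adjusted for the depth of a well. The part of depth and plate was not tested, so the shares do not show that members are expressed together. On the control plates Ntn1 was high in 64.4% of the 447 Comp-high wells and 57.7% of the other 886, and Col23a1 in 23.2% of the 799 Ntn1-high wells and 14.2% of the other 534. Srpx2 was high in 2.01% of Comp-high wells and 3.50% of the rest. Col23a1 was high in 20.4% of Comp-high wells and 19.2% of the rest. It was high in 12.2% of the 41 Thbs4-high wells and 19.8% of the other 1292. On the Tie1 Tie2 iΔLEC plates Ntn1 was high in 33.9% of the 174 Srpx2-high wells and 31.95% of the other 532, so wells with high Srpx2 had about the same share with Ntn1 as those without.

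LEC wells were also divided into capillary-like, collector-like and valve-like classes by marker genes, with the members left out of the clustering and each class formed by 1 cluster. Each class held 32 to 85 wells on a control plate and 10 to 32 on a Tie1 Tie2 iΔLEC plate, and clusters that could not be named held 43.9% of control LECs and 72.1% of Tie1 Tie2 iΔLEC LECs. Of the markers that define the classes, 4 of 7 for collectors (Tgm2, Mmrn2, Procr and Ccdc3), 1 of 6 for capillaries (Tppp3) and 0 of 4 for valves fell with Tie1/Tie2 deletion by edgeR at an adjusted p under 0.05, where 0.919% of all genes did. Mmrn2 and Ccdc3 did so in 19 of 19 alternative fits, Tgm2 and Procr in 17 (lost without either Tie1 Tie2 fl/fl plate, adjusted p up to 0.0966 and 0.100) and Tppp3 in 15 (up to 0.0926). Class shares were therefore not compared between groups. On the controls Ntn1 was highest in capillary-like wells at 664 ± 46.8 CPM (SD, n = 4), followed by collector-like wells at 485 ± 63.1 and valve-like wells at 227 ± 78.9, and these 3 spreads did not meet. Valve-like wells were below capillary-like wells on 8 of 8 plates of all groups, by 1.58 ± 0.39 on the log2(CPM + 1) scale (SD), and below collector-like wells on 8 of 8, by 1.25 ± 0.70. In an exact two-sided sign-flip permutation test over plates both had p = 0.00781, the smallest that 8 plates allow, and an adjusted p of 0.0586 over the 15 comparisons of members and classes, so neither passed.

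At the main clustering resolution of 1.0, none of the other 13 comparisons between classes passed either. These tests took plates of all 4 groups together, and the members differ between groups, which can widen the spread. A comparison that did not pass thus does not show equal levels in the classes. Comp was broadly distributed on the controls, at 505 ± 227 CPM in capillary-like, 628 ± 221 in collector-like and 332 ± 62.5 in valve-like wells. Col23a1 stood at 126 ± 56.6, 153 ± 34.5 and 56.9 ± 56.1. Srpx2 stood at 34.9 ± 16.6 in capillary-like, 4.14 ± 4.10 in collector-like and 10.3 ± 13.4 in valve-like wells, and the difference between valve-like and capillary-like wells over the 8 plates (-1.82 on the log2 scale) had an exact permutation p of 0.0234 and an adjusted p of 0.117. Thbs4 stood at 2.42 ± 0.703, 29.4 ± 49.1 and 70.0 ± 35.3. Its high wells on the controls were 0 of 218 capillary-like, 10 of 289 collector-like and 9 of 154 valve-like wells, and the other 22 of the 41 were in proliferating (2), interferon (1) and unnamed (19) clusters.

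After Tie1/Tie2 deletion the mean of Comp, Col23a1 and Ntn1 was lower and that of Srpx2 higher than on the controls in all 3 classes. Mean Comp was 18.4 CPM in capillary-like wells, 0.172 in collector-like and 0.0708 in valve-like wells. Mean Srpx2 was 177, 267 and 71.8 CPM, with only 18 and 10 collector-like wells on the 2 plates. Markers that define the classes fell with the deletion, and genes were scaled within each plate for clustering. A class may thus not hold the same kind of cell in each group, so the gaps are not ranked between classes. The share of wells with high Srpx2 was 26.0% in capillary-like wells against 6.88% on the controls, 39.3% against 0.692% in collector-like, 13.2% against 1.30% in valve-like, and 24.2% against 3.08% in wells of unnamed clusters. Mean Ntn1 was 239, 195 and 105 CPM and mean Col23a1 11.7, 20.4 and 14.1. Thbs4 was 0 in collector-like and valve-like wells of both plates, in 10 to 32 wells per plate and class. In capillary-like wells it was 0 and 4.47 CPM against 1.98 to 3.47 on the controls, so there the groups overlapped. On the Tie1 iΔLEC plates Comp stood at 490.2, 335 and 410.0 CPM, Ntn1 at 441, 381 and 127, and Srpx2 at 23.3, 21.8 and 8.999 in the same order. The gap of Srpx2 to the controls in collector-like wells there was not tested.

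**Figure D4:**
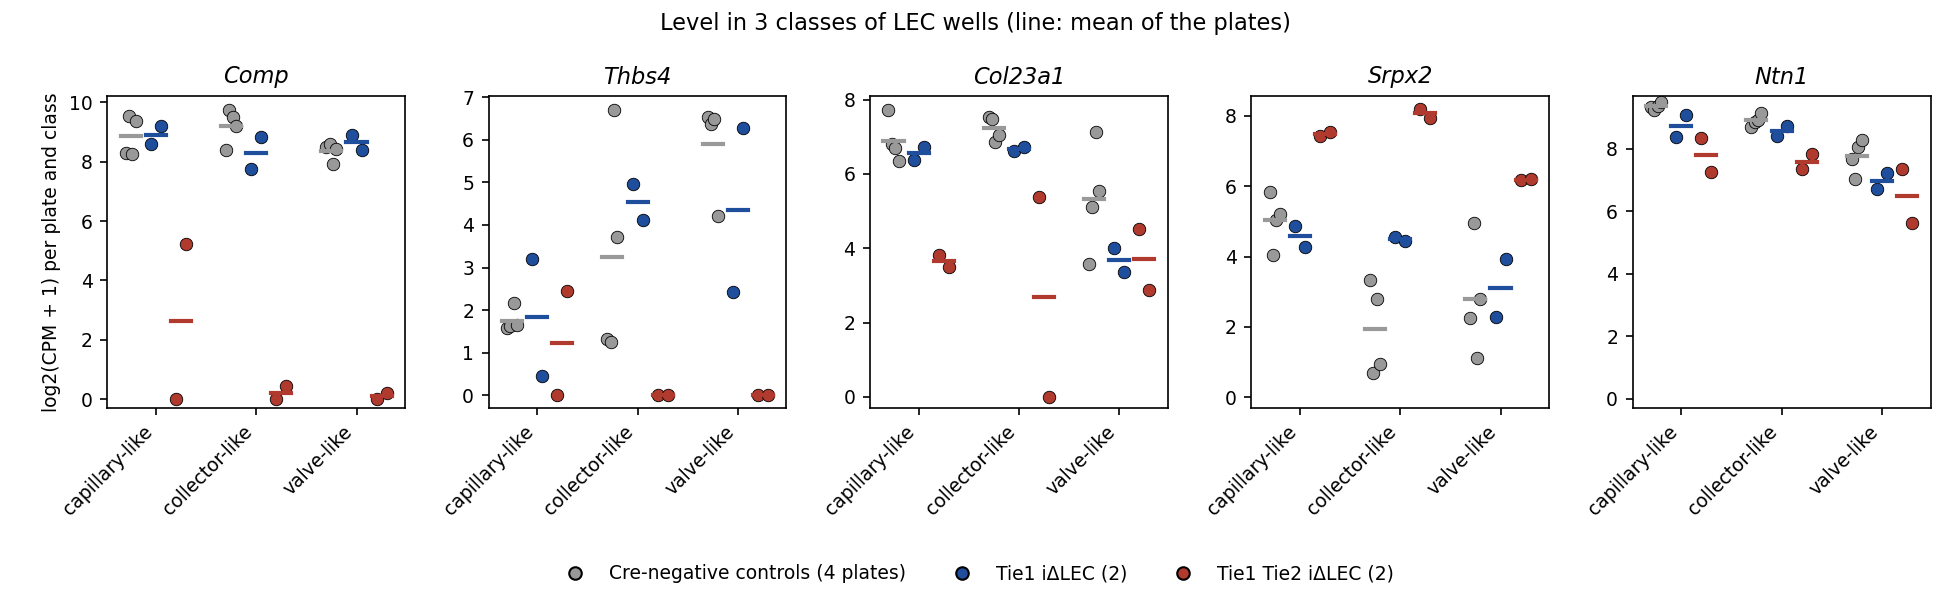
Level of each gene, as log2(CPM + 1), in capillary-like, collector-like and valve-like LEC wells, with 1 point per plate, colored by control, Tie1 iΔLEC and Tie1 Tie2 iΔLEC, and a line at the mean of the plates. Srpx2 is higher on the Tie1 Tie2 iΔLEC plates in all 3 classes (means of 177, 267 and 71.8 CPM), and Comp is near 0 in collector-like and valve-like wells.

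Other genes of the members' pathways were taken from lists, and are given by their counts. Among the 3 other thrombospondins, Thbs1 rose with Tie1/Tie2 deletion, where 0.326% of all genes did, and none fell, where 0.919% did, with a median log2 change of 1.53 (0.52 with Tie1 deletion). Thbs1, an inhibitor of angiogenesis, was at 129.8, 233, 128 and 148 CPM on the controls, 256 and 355 on Tie1 iΔLEC and 1200.3 and 973 on Tie1 Tie2 iΔLEC, which were the highest of all plates. It rose by 2.98 (SE 0.33, edgeR adjusted p = 0.00510) with Tie1/Tie2 deletion, and its change with Tie1 deletion was 0.75 (SE 0.31). Thbs2 changed by 1.53 (SE 0.45, adjusted p = 0.239) and Thbs3 by -0.82 (SE 0.39, adjusted p = 0.525). Thus, within the thrombospondin family, Thbs1 was higher on the plates where Comp and Thbs4 were lower.

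Of 11 receptors of thrombospondins and COMP, 1 rose with Tie1/Tie2 deletion, where 0.326% of all genes did, and none fell, with a median of -0.34 (0.10 with Tie1 deletion). Cd36, a receptor for thrombospondin 1 and a fatty acid transporter, was at 9.19, 9.27, 10.1 and 13.2 CPM on the controls, 30.1 and 59.8 on Tie1 iΔLEC and 130.4 and 191 on Tie1 Tie2 iΔLEC. The Tie1 iΔLEC plates stood above all controls, and the Tie1 Tie2 iΔLEC plates above those. It rose by 3.78 (SE 0.41, edgeR adjusted p = 0.00478) with Tie1/Tie2 deletion. With Tie1 deletion the change was 2.28 (SE 0.39, adjusted p = 0.491). Without the first Tie1 Tie2 fl/fl plate neither gene passed with Tie1/Tie2 deletion (edgeR adjusted p = 0.0775 for Thbs1 and 0.0599 for Cd36). Cd47 changed by -0.08 and Itga5, an integrin subunit, by -0.34. Blood endothelial cells also express Cd36. Of 7 blood endothelial markers tested, 3 (Aqp1, Cd34 and Esm1) rose with Tie1/Tie2 deletion by edgeR, with a median of 1.48. On the plates Cd36 and Thbs1 were among the leading genes of a cluster of 428 wells, of which 99.3% had at least 5 counts of Mmrn1. Aqp1 and Cd34 were among those of a cluster of 197 wells, of which 99.5% did. Keratinocyte-like wells reached that count in 96.0%, so Mmrn1 does not separate the kinds of cell. The part of blood endothelial cells in the Cd36 change was not tested. Over 19 alternative fits Esm1 passed in 17, Aqp1 in 12 and Cd34 in 9, with adjusted p up to 0.0720, 0.340 and 0.294.

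Of the netrin receptors, 6 of 10 had enough counts to be tested and none passed with either deletion, with a median of 0.56 (0.77 with Tie1 deletion). Neo1, which encodes neogenin and is also one of the valve markers, was at 90.2, 108, 105 and 197 CPM on the controls, 228 and 271 on Tie1 iΔLEC and 468 and 395 on Tie1 Tie2 iΔLEC. Both Tie1 iΔLEC and both Tie1 Tie2 iΔLEC plates were above all 4 controls, but its changes of 1.33 (edgeR adjusted p = 0.907) and 1.52 (adjusted p = 0.0780) did not pass. With Tie1/Tie2 deletion Unc5b changed by 0.61 (adjusted p = 0.526), Mcam by -1.22 (0.412) and Ptk7 by 0.52 (0.679). Of the 5 other netrins 3 were tested and none passed, with a median of -1.31 (-0.42 with Tie1 deletion). Ntn4 was at most 10.6 CPM on any plate.

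None of the 3 other transmembrane collagens and none of 6 of their partners passed, with medians of -2.87 and -0.87. Those collagens had at most 2.90 CPM on average, and no reading is made of that median. Furin, a protease that can shed such collagens, changed by 0.04, and Ddr1, a collagen receptor, by -0.96 (edgeR adjusted p = 0.450). Among 7 relatives and partners of Srpx2 none passed, with a median of -0.36. Plaur, the urokinase receptor that SRPX2 binds, changed by 0.84 (adjusted p = 0.435), Plau, which encodes urokinase, by 1.11 (0.285), Adamts4 by -0.36 and Ctsb by -0.03. Cartilage and tendon matrix genes stood for the tissue from which Comp is best known. Of 20 such genes 17 were tested, and none passed with either deletion. Their median was -2.56 with Tie1/Tie2 deletion (-2.88 with the 4 genes that had a group at 0 set to their bound) and 0.08 with Tie1 deletion. The summed level of all 20 was 39.0 to 73.0 CPM on the controls, 62.2 and 39.5 on Tie1 iΔLEC and 26.8 and 16.03 on Tie1 Tie2 iΔLEC. This sum was thus lowest on the plates where Comp was lowest, and its part in the Comp result was not tested. Cilp2 (-4.49, adjusted p = 0.494) and Matn2 (1.60, adjusted p = 0.496) had the highest CPM of them.

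The genes whose levels most resembled each member over the 8 plates were sought among the 11206 genes that reached 5 CPM on average, by Pearson's r of log2(CPM + 1). Since the Tie1 Tie2 iΔLEC plates lie apart for every member, these values mostly reflect the gap between those 2 plates and the other 6. Comp was most like Aldh1a3 (r = 0.997), Eln (0.996) and Tek itself (0.995). Eln, which encodes elastin, was at 588, 757, 642 and 717 CPM on the controls, 479.5 and 549.8 on Tie1 iΔLEC and 64.2 and 64.1 on Tie1 Tie2 iΔLEC. Col23a1 was most like Kcnk5 (0.995), Clca3a1 (0.994) and Pmp22 (0.992). Kcnk5, a potassium channel, was at 80.0 to 112 CPM on the controls, 29.3 and 47.0 on Tie1 iΔLEC and had no count on either Tie1 Tie2 iΔLEC plate. Thbs4 was most like Btnl9 (0.985), Gm20547 (0.984) and Gucy1a1 (0.982), Ntn1 like Lsr (0.989), Nkd1 (0.988) and Sptbn1 (0.984), and Srpx2 like Retreg1 (0.990), Gm15270 (0.987) and Prn (0.984). Between members, Comp and Thbs4 had r = 0.96 and Comp and Srpx2 r = -0.97, over the same plates on which they were chosen.

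The droplet libraries gave a separate measure of the members in LECs, after blockade of the Tie2 ligand Ang2 in place of receptor deletion. The Ang2 Ab library was assigned by its treatment label, although its title contains the word control, as does that of the IgG library. Each condition had 1 library, so no test was made, and the intervals cover counting error only. After filtering, 1202 LECs were found with IgG (median 12272.5 UMIs) and 653 with Ang2 Ab (median 11702 UMIs), and the libraries shared 5 cell barcodes. Comp was at 34.7 CPM of UMIs (95% exact Poisson interval 31.9 to 37.7) with IgG and 14.7 (12.2 to 17.5) with Ang2 Ab, a ratio of 0.423 (0.346 to 0.513). Col23a1 was at 72.1 and 36.5, a ratio of 0.506 (0.446 to 0.574), and Ntn1 at 249 and 163, a ratio of 0.654 (0.615 to 0.695). Srpx2 was at 8.01 (6.69 to 9.51) and 20.6 (17.7 to 23.8), a ratio of 2.57 (2.04 to 3.24). Thbs4 was at 8.57 (7.20 to 10.1) and 7.74 (6.00 to 9.83), and the interval of its ratio of 0.904 (0.665 to 1.22) included 1. Thus Comp, Col23a1 and Ntn1 were lower and Srpx2 higher in the Ang2 Ab library. Given that assignment, these are the same signs as with Tie1/Tie2 deletion. The share of all genes whose intervals were apart in this way is not given, so nothing is read from the shared signs. The Thbs4 ratio was 1.38 in collector-like, 0.882 in capillary-like and 0.672 in proliferating LECs. It was 1.11 without the 5% of cells with the highest Scrublet (doublet) score. With IgG, 48 of its 139 UMIs lay in proliferating LECs. Its interval covers counting error only, so no difference between Thbs4 and the other members is read from these libraries.

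**Figure D5:**
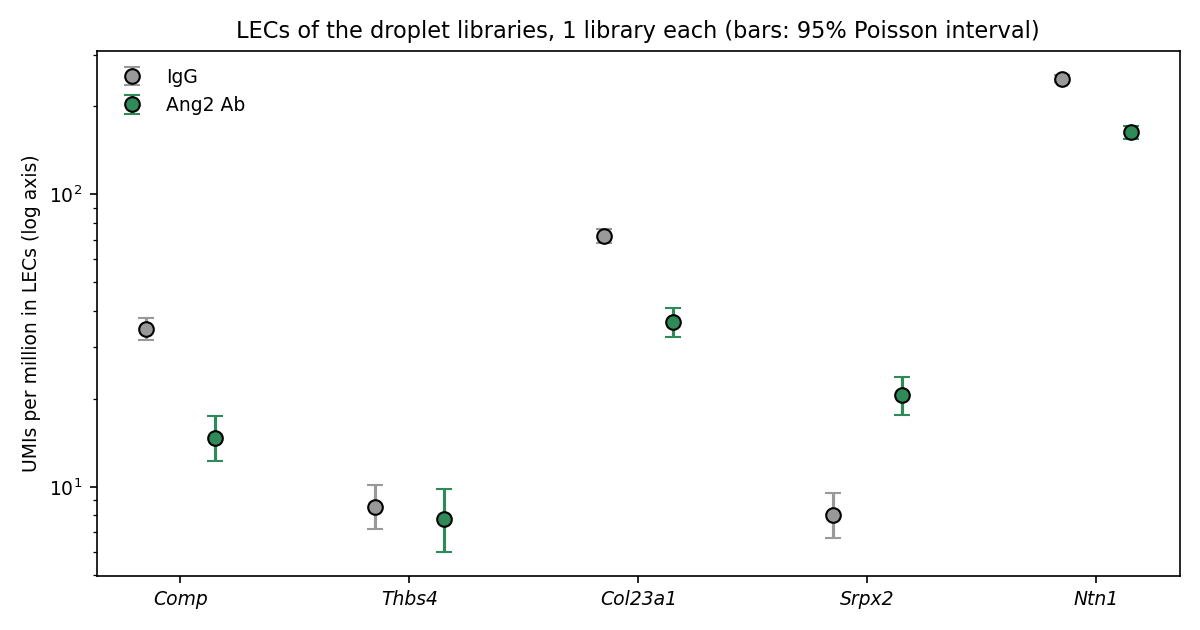
Level of each gene in LECs of the IgG and the Ang2 Ab library, in CPM of UMIs on a log axis, with 95% exact Poisson intervals as bars and 1 library per condition. The intervals are apart for Comp (34.7 and 14.7), Col23a1 (72.1 and 36.5), Srpx2 (8.01 and 20.6) and Ntn1 (249 and 163), and overlap for Thbs4 (8.57 and 7.74).

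The share of LECs with at least 1 UMI was 23.0% with IgG and 11.0% with Ang2 Ab for Comp, 39.8 and 26.0% for Col23a1, 82.5 and 65.1% for Ntn1, 8.57 and 15.5% for Srpx2, and 5.82 and 5.05% for Thbs4. In blood vascular endothelial cells of the same libraries (643 and 700 cells, medians of 8215 and 7424.5 UMIs) it was 0.778 and 1.29% for Comp, 1.09 and 0.429% for Col23a1, 7.62 and 6.00% for Ntn1, 0.933 and 0.286% for Srpx2, and 0.156 and 0.571% for Thbs4, all below the shares in LECs. With cells thinned to 1000 UMIs, leaving out 23 LECs below that depth, the shares in LECs were 3.79 and 1.40% for Comp, 7.75 and 3.10% for Col23a1, 22.2 and 16.9% for Ntn1, 0.674 and 1.71% for Srpx2, and 0.758 and 0.775% for Thbs4.

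Within the LECs, Comp was lower with Ang2 Ab in collector-like cells (ratio 0.459, interval 0.351 to 0.593) and in capillary-like cells (0.357, 0.253 to 0.494). Srpx2 was higher in both (ratios of 2.77 and 2.26), Col23a1 lower in both (0.505 and 0.470), and Ntn1 lower in both (0.716, 0.652 to 0.785, and 0.563, 0.513 to 0.616). The cluster called collector-like was led by immediate early genes such as Socs3, Zfp36, Fosb, Fos and Atf3, and held all 7 collector markers. With IgG, Ntn1 was at 349.8 CPM in capillary-like, 218 in collector-like and 159 in valve-like LECs, the same order as on the control plates. Col23a1 was at 99.3, 69.0 and 10.7, highest in capillary-like cells, whereas on the control plates its mean was highest in collector-like wells. In the same LECs Thbs1 was at 166 with IgG and 522 with Ang2 Ab, Cd36 at 40.0 and 109.6, Tek at 116 and 83.9, and Tie1 at 381 and 402 CPM.

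The members were not particular to the cells called LECs. A cluster of 158 and 128 cells was led by Cd79a, Pou2f2, Sbspon and Gdf10 and was left unnamed. In it Comp was at 156 CPM with IgG and 96.1 with Ang2 Ab (ratio 0.615, interval 0.492 to 0.765), and Thbs4 at 35.2 and 44.3. Prox1 was found in 99.3% of its cells, and 1 of 6 LEC markers was raised. Gdf10 is a valve marker, and Sbspon and Gdf10 also led the valve-like wells of the plates. These cells may thus be valve LECs, so they do not show the members outside LECs. Another unnamed cluster (98 and 82 cells), led by cartilage genes, held Comp at 164 and 171 and Srpx2 at 144 and 156. Fibroblasts (47 and 39 cells) held Thbs4 at 473 and 1166 CPM, in 7 and 8 cells, and Srpx2 at 91.0 and 128. Mural cells (179 and 222 cells) held Srpx2 at 32.4 and 40.2. In fibroblasts, mural cells and the cluster led by cartilage genes, Srpx2 was above its level in LECs of either library.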

How the data were processed

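Smart-seq read counts of 8 plates and 2 droplet libraries from mouse ear skin were analyzed. Per the labels and the study's methods, plate reads were aligned with TopHat2 2.1.1 to GRCm38 (mm10) and counted per gene with Subread featureCounts, and the droplet reads were processed with Cell Ranger (2.1.1 in the submitters' processing notes, 6.0.2 in the file headers). The authors deposited raw counts per gene and well, or UMI counts per gene and cell. Plates were in 2 layouts, of gene symbols (378 wells) and gene identifiers (384 wells), which were joined over 42566 genes (current symbols matched 41776, former ones the other 790) that hold 95.8 to 97.1% of the counts. The 94 rows without a gene identifier were left out and held at most 0.158% of a plate's counts. No genome sequence was used, gene spans came from GENCODE vM21, and promoters from the RefSeq table.

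Wells with at least 1000 detected genes were clustered with scanpy 1.11.5 (2000 variable genes, 30 components, 15 neighbors, Leiden resolution 1.0), with 17 genes, the members included, left out. LEC wells were summed per plate and fitted with edgeR 4.0.16 (TMM scaling, filterByExpr, quasi-likelihood F test, 4 group means over all 8 plates, Benjamini-Hochberg at 0.05). Limma 3.58.1 and DESeq2 1.42.0 were alternatives. The fits were tested on simulated data. Droplet barcodes needed 500 detected genes and no more than 10% of UMIs from mitochondrial genes, which left 3418 and 2961 cells. Scrublet marked 22 cells (0.344%), which were removed, so it did not work as a doublet filter. The labels do not say whether plates came from separate animals, so p-values measure the spread between plates, which may be technical.

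The members and gene lists were chosen with earlier results of these data known. The genes named are the 5 members, list genes that passed a test or up to 4 per list by mean CPM, the 3 genes most like each member in log2(CPM + 1), the markers that passed, and Tie1 and Tek. Intervals for droplet counts cover counting error only.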

Additional observations from a re-analysis of the deposited data

Results flagged for a closer look

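For 4 of the 29 list genes chosen by level or by a passed test, every Tie1 iΔLEC plate was above its controls while every Tie1 Tie2 iΔLEC plate was below its own. The order of the plates was thus opposite for the 2 deletions, and no opposite effect is read from it. This was read from the order of the plates, and the difference itself passed edgeR's test for none of the 4. Over all 19909 genes tested, 2.83% had the same order of plates, and 1.84% the opposite order. Thbs3 had a log2 difference between the deletions of -1.34 (edgeR adjusted p = 0.629), with 40.9 and 64.5 CPM on Tie1 iΔLEC against 33.3 and 40.3, and 22.1 and 13.3 on Tie1 Tie2 iΔLEC against 37.8 and 24.7. Itgb1 had a difference of -0.49, with 743 and 703 CPM against 646 and 623, and 762 and 517 against 818 and 763. Itga11, at 0.0665 to 17.4 CPM over the plates, had a difference of -10.48 (edgeR adjusted p = 0.0941). Col17a1 had a difference of -6.98 (edgeR adjusted p = 0.531) on at most 228 counts per plate, with no count on 1 of the Tie1 Tie2 iΔLEC plates. None of the 5 members met this description.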

How the results depend on the processing

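The alternatives were DESeq2, limma, no filter on low counts, other scalings, wells and clusters, and leaving out each plate. Across 18 or 19 of them the sign of every member's log2 change with Tie1/Tie2 deletion and of every difference was kept, as was that of Thbs4, Col23a1 and Ntn1 with Tie1 deletion; Comp (-0.94 to 0.24) and Srpx2 (-0.08 to 0.39) changed sign in 1 of 19. The number of genes called moved most. With DESeq2 it was 176 for Tie1 deletion, 1041 for Tie1/Tie2 deletion, 454 for the difference and 143 between control strains, and with no filter on low counts 274, 1212, 666 and 207. For the difference it was 15 with the table layout as a term and 17 with no cluster removed. Leaving out each plate gave 88 to 223 calls for Tie1/Tie2 deletion and 4 to 17 for the difference.

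Plates of control and deleted groups share the numbers 1 and 2, which the labels do not tie to a litter or day. Within a strain, however, same-numbered plates had the same table layout and consecutive plate ids in the labels. The main fit did not use this pairing. With the replicate number as a block, 0, 180 and 12 genes passed for the Tie1 deletion, the Tie1/Tie2 deletion and the difference. Of those 12, 10 had passed in the main fit, and 0 were higher. Deviations of same-numbered plates had correlations of 0.176 and 0.196.

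Member differences between the deletions ranged, over plates left out, from -6.17 to -4.98 for Comp, -8.74 to -5.51 for Thbs4, -2.003 to -1.72 for Col23a1, 2.79 to 3.26 for Srpx2 and -1.59 to -1.05 for Ntn1. With limma on log2(mean CPM per well + 1) they were 2.78 for Srpx2, -4.27 for Thbs4 and -2.07 for Col23a1, and in wells at or under 100 CPM of fibroblast markers 3.79, -9.27 and -1.64. Between classes, 4 comparisons passed at clustering resolution 2.0. For Ntn1 they were valve-like against capillary-like (-1.92), valve-like against collector-like (-1.49) and collector-like against capillary-like wells (-0.43). For Col23a1 it was valve-like against capillary-like wells (-2.24). The Comp gap between collector-like and capillary-like wells turned positive in control plates alone (0.35), at resolution 2.0 (0.63) and without the second Tie1 Tie2 iΔLEC plate (0.023; -0.84 to 0.023 over plates left out), that of Col23a1 with a pseudocount of 5 CPM (0.16), in controls (0.34) and without the same plate (0.45; -0.27 to 0.45 over plates left out), and that of Srpx2 between valve-like and collector-like wells in controls (0.84). The shift in the share of wells with a count after Tie1/Tie2 deletion, in percentage points, was -68.6 for Comp, -15.9 for Thbs4 and -31.3 for Col23a1 in wells thinned to 50000 counts. At a minimum of 2 counts it was -18.3 for Thbs4, -31.7 for Col23a1 and -43.1 for Ntn1, and at 20 counts -33.1 for Comp, -3.69 for Thbs4 and -14.3 for Col23a1. The Ang2 Ab to IgG ratio was 0.523 for Comp with the Prox1-expressing cluster added and 0.702 for Ntn1 at 5% mitochondrial UMIs. The causes were not tested, and with 2 plates per group and 1 droplet library per condition, small changes were not detectable.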
